A study of Rattus norvegicus with 12 samples.

Results

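Whole blood RNA was compared between 2 inbred rat strains, Wistar Kyoto (WKY) and Fischer 344 (F344), in animals that had not been restrained. The members are the 6 libraries whose titles mark a strain and the control treatment, 3 per strain, out of 12 libraries in the series. All were adult males aged 70 to 90 days at the start, obtained from Envigo per the labels. Unrestrained rats of both strains went through contextual fear conditioning, stayed 4 weeks in the home cage, remained there undisturbed while other animals were restrained, and were conditioned again. Blood was drawn into PAXgene tubes at decapitation, 24 hours after the last conditioning session. Both strains therefore carried the same handling, and every group had been through both rounds of conditioning. The other 6 libraries came from rats of the same strains restrained for 2 hours daily over 2 weeks, and they served as a second set in which the strain difference could be measured. No label ties a library to 1 rat, so p-values measure only the spread between these libraries, which may be technical.

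WKY is an inbred strain widely used as a model of heightened stress reactivity and depression-like behaviour, and F344 is a common inbred laboratory strain. Blood cells detect viral nucleic acids and respond with type I interferons, which act through a transcription factor complex containing IRF9 on a DNA motif called the interferon-stimulated response element. IRF7, itself switched on by interferon, binds closely related motifs and drives the production of more interferon. The products of the genes switched on this way block viral replication and raise the display of peptides on MHC class I molecules, which in the rat are encoded by the RT1 genes.

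The 6 libraries held 1691956 to 3141206 counts assigned to genes, and 88.9% to 94.6% of these fell on 3 features alone, LOC257642, LOC310926 and Rn5-8s. The rest of the transcriptome was covered by 90796 to 347841 counts, fewest in F344 replicate 3 (90796) and WKY replicate 3 (170507). In a principal component analysis of all 12 libraries, the first component held 25.0% of the variance; it placed F344 replicates 2 and 3 at 21.1 and 40.5 and the other 10 libraries between -14.3 and 2.22. Reads recorded as ambiguous between features made up 80.7% to 83.6% of all counts, so genes with near-identical copies or overlapping neighbours were measured with uncertainty. Defining transcripts of the expected blood cells were present, with 29043 to 110167 counts of beta globin Hbb, 40 to 397 of the monocyte lysozyme Lyz2, 16 to 135 of the neutrophil receptor Csf3r and 10 to 116 of the platelet chemokine Pf4. Other defining markers were low: Cd14 of monocytes had 0 to 5 counts, S100a8 of neutrophils 1 to 11, Ppbp of platelets 1 to 2, and Nkg7, Klrd1 and Ncr1 of NK cells 0 to 4 each. Cd79a of B cells and Itga2b of platelets had no entry under these names in the counts. Among markers of tissue that decapitation could add, Gfap and Snap25 of brain had 0 to 2 counts and Krt5 and Krt14 of skin 0 to 1, while Mbp of myelin had 5 to 14 and the muscle actin Acta1 1 to 12. Of 26 brain and nerve genes, 4 were abundant enough to test and 0 were called.

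Across 2781 tested genes, 19 differed between unrestrained WKY and F344 at an adjusted p under 0.05 (0.683% of those tested). Of these, 9 were higher in WKY (0.324%) and 10 were lower (0.36%). The test was edgeR's quasi-likelihood test, with p-values adjusted over all 2781 genes by the Benjamini-Hochberg method. Levels below are CPM, counts relative to the library total after TMM scaling (a correction for library composition), and differences are log2 of WKY over F344. The whole table was balanced, with a median log2 difference of -0.01 and 49.3% of genes positive, and 259 genes had an unadjusted p under 0.05. Genes whose 3 WKY libraries all lay above the 3 F344 libraries made up 7.7% of the table, and those with all 3 below made up 6.33%. The libraries did not overlap in 18 of the 19 called genes, Sav1 being the exception. This adds no separate support, because the test that chose these genes used the same libraries. Because these are bulk samples, fewer cells of a type and less RNA per cell cannot be told apart.

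**Figure D1:**
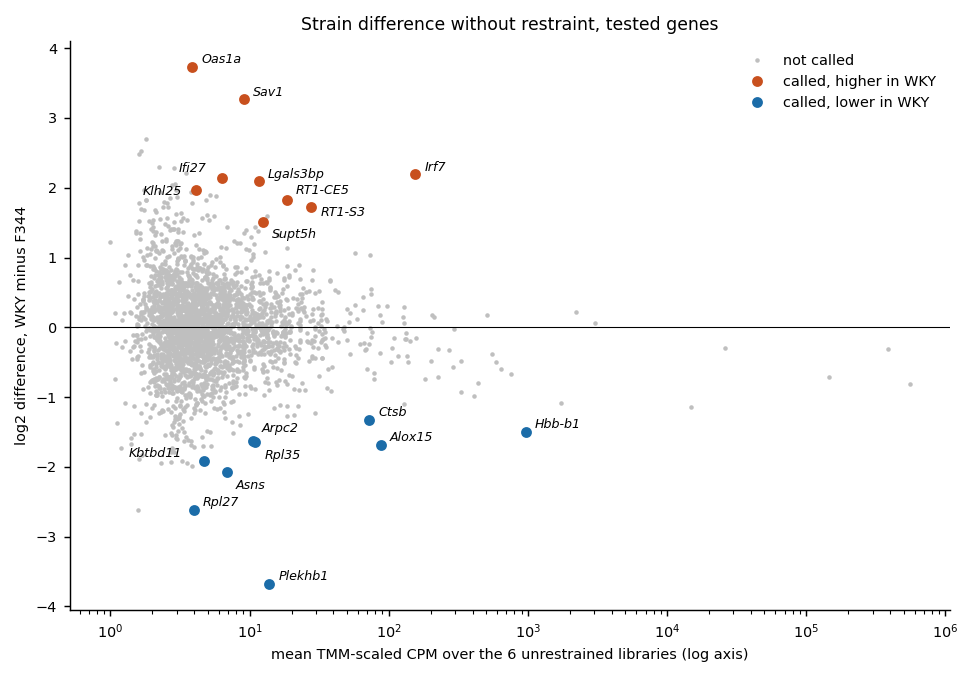
Log2 difference between unrestrained WKY and F344 (y axis) against the mean TMM-scaled CPM over the 6 libraries (x axis, log scale), 1 point per tested gene, without genes not reported here. The 9 genes called higher in WKY (orange) include Irf7 at high abundance, and those called lower (blue) include Plekhb1 (-3.68).

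**Figure D2:**
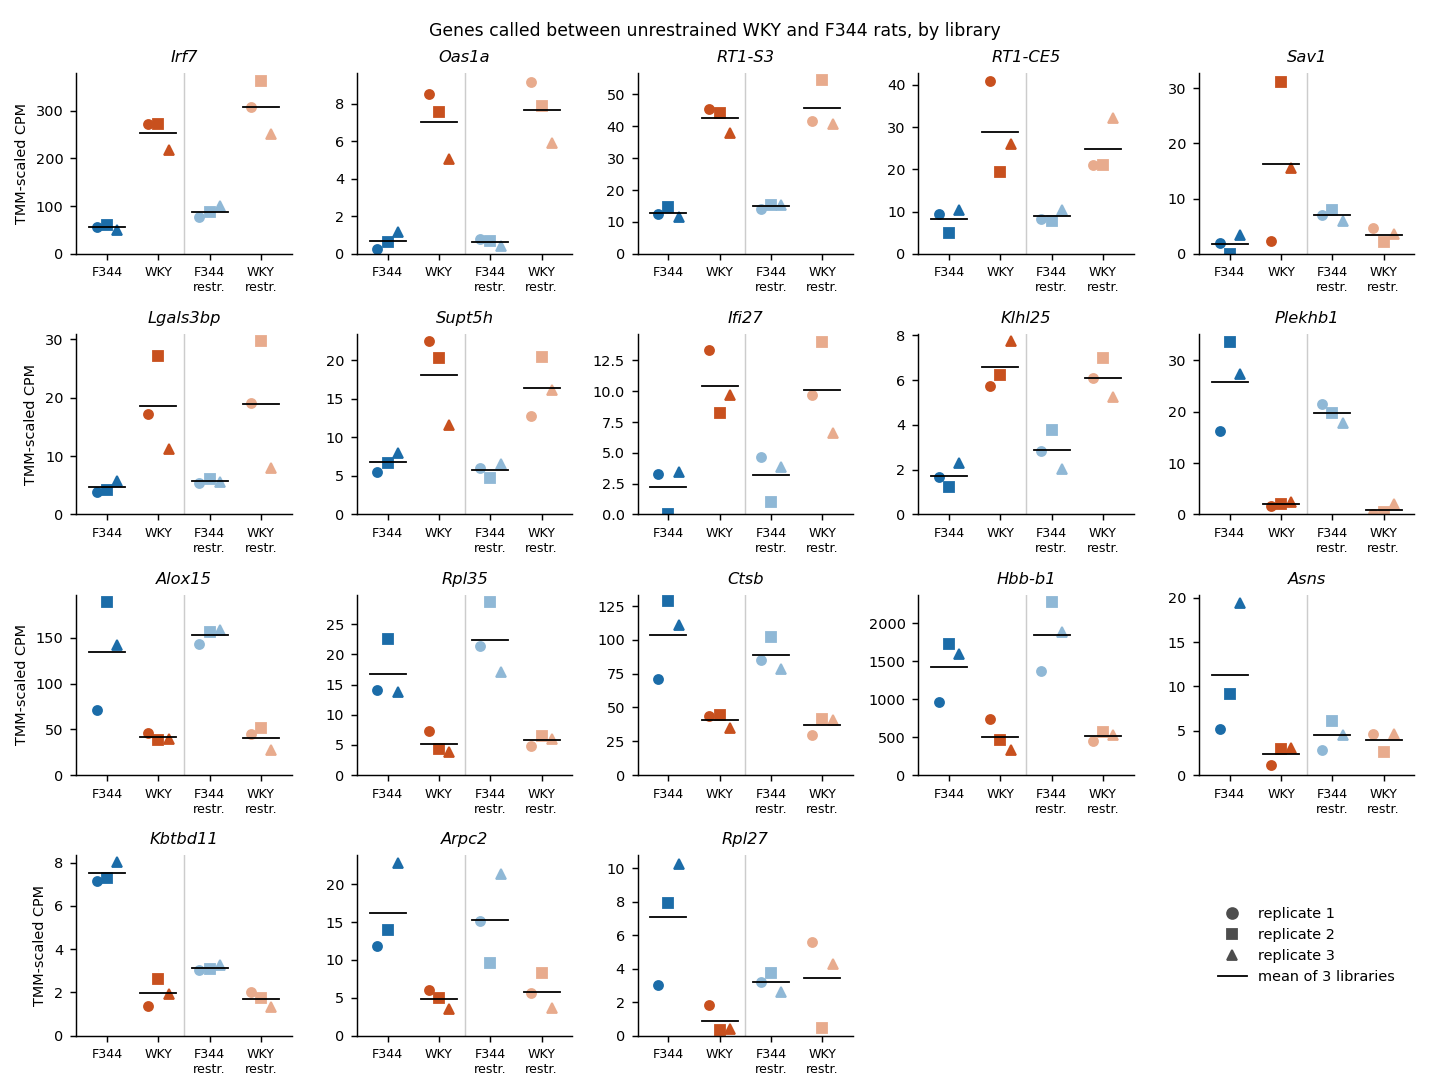
TMM-scaled CPM of the called genes described here in each library, 1 panel per gene, with group means as bars and replicate numbers as symbols. Dark points are the 6 unrestrained libraries compared here and pale points the 6 restrained ones; unrestrained F344 and WKY points overlap for Sav1 alone.

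Interferon genes made up 4 of the 9 transcripts called higher in WKY. Irf7 stood at 56.0, 59.7 and 50.3 CPM in F344 replicates 1, 2 and 3 and at 271, 273 and 219 CPM in WKY. Every WKY library lay more than 3 times above every F344 library, and the fitted difference was 4.58-fold (log2 2.19, SE 0.297, adjusted p = 8.96e-06). Oas1a, which makes the oligoadenylate messenger that activates RNase L, was close to undetected in F344, with 1 count in each of the 3 libraries, against 37, 23 and 13 counts in WKY. Summed over libraries the ratio of WKY to F344 was 14.98 with a 95% counting interval of 4.93 to 74.3, and the fitted log2 difference was 3.74 (SE 0.624, adjusted p = 0.000486). Ifi27, an interferon-induced protein of mitochondrial and nuclear membranes, had 3.31, 0 and 3.43 CPM in F344 and 13.4, 8.19 and 9.68 CPM in WKY (log2 2.14, SE 0.522, adjusted p = 0.0357). Lgals3bp, a secreted glycoprotein that binds galectins and rises with interferon, had 3.86, 4.26 and 5.72 CPM in F344 against 17.3, 27.2 and 11.2 CPM in WKY (log2 2.09, SE 0.443, adjusted p = 0.0106). Irf7 and Oas1a stayed past the threshold when any 1 of the 12 libraries was left out. The Lgals3bp call ended without F344 replicate 1 or 2 or WKY replicate 2, and the Ifi27 call without F344 replicate 2 or 3 or any WKY library.

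The DNA just before these genes is shown because interferon signalling acts on a short motif there. RefSeq promoter sequences of the GRCr8 rat assembly, from 250 bases before to 50 bases after each gene's start, were searched for the motif core GAAANNGAAA on both strands, overlapping matches included. All 9 genes called higher had a promoter in that table and 5 of them (55.6%) held the core. It was present in 3.77% of all 27457 promoters and in 4.12% of the 2257 tested genes with a promoter. Of the 10 genes called lower, 5 had a promoter in the table (Plekhb1, Rpl35, Hbb-b1, Asns and Arpc2) and 0 of these 5 held the core. The stretches around the matches, read 5′ to 3′ on each gene's own strand with the matched bases in capitals, are these:
Irf7 (chr1:205800063-205800112, minus strand): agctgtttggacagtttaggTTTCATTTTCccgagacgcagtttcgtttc
Oas1a (chr12:41330405-41330460, plus strand): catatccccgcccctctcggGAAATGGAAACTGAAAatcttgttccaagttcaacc
RT1-S3 (chr20:2675396-2675445, plus strand): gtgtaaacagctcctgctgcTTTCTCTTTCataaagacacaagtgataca
Lgals3bp (chr10:104127869-104127918, minus strand): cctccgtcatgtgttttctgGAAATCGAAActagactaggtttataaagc
Ifi27 (chr6:128355123-128355257, plus strand): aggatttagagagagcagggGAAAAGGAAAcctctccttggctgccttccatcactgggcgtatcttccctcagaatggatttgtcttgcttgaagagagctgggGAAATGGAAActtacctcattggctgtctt
In Oas1a, 2 matches overlapped, and Ifi27 held 2 separate matches. The match in Irf7 and the match in RT1-S3 read on the opposite strand, as the T-rich form of the core. The stretches spanned positions -89 to -40 from the start in Irf7, -61 to -6 in Oas1a, -132 to -83 in RT1-S3, -70 to -21 in Lgals3bp and -189 to -55 in Ifi27. The remaining 4 higher genes (RT1-CE5, Sav1, Supt5h and Klhl25) had no match in this window. These are reference letters and not sequence read from either strain, a match is not a measured binding site, and the group of 5 was chosen by expression.

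The lists of interferon pathway genes, which include the called genes just described, showed a graded picture. Among 43 tested interferon-stimulated effectors, 35 had positive differences with a median of 0.63 (-0.01 over all genes), 3 were called higher and 0 lower. All 3 WKY libraries lay above all 3 F344 libraries for 19 of the 43 (44.2%, against 7.7% over all genes) and below for 1. Members that missed the threshold included Mx1, a GTPase that blocks influenza-type viruses (6.28 ± 1.67 against 16.8 ± 5.0 CPM, SD, n = 3, log2 1.38, adjusted p = 0.0611), its relative Mx2 (log2 1.59, adjusted p = 0.0716), the ubiquitin-like modifier Isg15 (log2 2.22, adjusted p = 0.0697) and Oas3 (log2 1.90, adjusted p = 0.0750). Rsad2, which makes an antiviral nucleotide, stood at 252 ± 96.2 CPM in F344 and 202 ± 47.0 CPM in WKY (log2 -0.31, adjusted p = 0.840). Eif2ak2, the double-stranded RNA kinase PKR, had a log2 difference of -0.89 (adjusted p = 0.763) and Oasl2 one of -0.51. With Rsad2 included, the summed CPM of all listed effectors was 384, 598 and 546 in F344 replicates 1, 2 and 3 and 645, 591 and 638 in WKY, so the sums overlapped while most single members were higher. Of the 43, 32 had a promoter in the RefSeq table and 17 of these (53.1%) held the motif core.

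The 17 tested genes of interferon sensing and signalling had a median log2 difference of 0.40, 13 were positive, and Irf7 alone was called. Myd88, the adaptor of Toll-like receptors, had a log2 difference of 1.07 (adjusted p = 0.540). Irf5, a relative of Irf7, had -0.83 (adjusted p = 0.591), Irf3 had -0.22 and the receptor kinase Jak1 -0.23. The summed CPM of this list was 169, 159 and 158 in F344 and 401, 396 and 348 in WKY, and Irf7 alone gave 271 of the 401 CPM in WKY replicate 1.

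MHC class I genes, whose products display peptides to cytotoxic T cells, held 2 of the called transcripts. RT1-S3, a non-classical class I gene, had 12.4, 14.6 and 11.4 CPM in F344 and 45.4, 44.2 and 37.9 CPM in WKY (log2 1.72, SE 0.303, adjusted p = 0.00106). RT1-CE5 had 9.38, 4.87 and 10.3 CPM in F344 against 41.0, 19.3 and 25.9 CPM in WKY (log2 1.83, SE 0.360, adjusted p = 0.00468), a call that ended without F344 replicate 2 or WKY replicate 1. The fitted folds were 3.29 and 3.55, with no overlap between libraries. Among the 22 tested members of the class I and antigen processing list, 17 had positive differences around a median of 0.86, and all WKY libraries lay above all F344 libraries for 9 (40.9%, against 7.7% over all genes). The classical genes RT1-A1 (log2 1.44) and RT1-A2 (log2 1.33), both with an adjusted p of 0.0914, and the peptide loading factors Tapbp (log2 1.21, adjusted p = 0.178) and Tapbpl (log2 1.80, adjusted p = 0.223) were among these 9. B2m, the light chain that every class I molecule shares, had a log2 difference of -0.01 (adjusted p = 0.993) and the peptide transporter subunit Tap2 one of 0.08. RT1 genes are close copies: RT1-CE4, which overlaps RT1-CE5 in the annotation, had the opposite sign (log2 -0.92, adjusted p = 0.543), and RT1-CE16 had all WKY libraries below F344 (log2 -0.69, adjusted p = 0.669). Reads shared between such copies cannot be assigned to 1 of them from these counts. MHC class II genes, which serve helper T cells, had 4 of 6 positive differences, a median of 0.20 and 0 calls.

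Another 3 genes that belong to neither the interferon nor the MHC lists were higher in WKY. Supt5h, a subunit of the DSIF complex that controls RNA polymerase II elongation, had 5.52, 6.70 and 8.01 CPM in F344 and 22.6, 20.3 and 11.6 CPM in WKY (log2 1.51, SE 0.364, adjusted p = 0.0329). Klhl25, a substrate adaptor of a cullin 3 ubiquitin ligase, had 1.65, 1.22 and 2.29 CPM in F344 and 5.76, 6.23 and 7.74 CPM in WKY (log2 1.97, SE 0.485, adjusted p = 0.0392). Its counts were 6, 2 and 2 in F344 and 25, 19 and 20 in WKY. The strains did not overlap in Supt5h or Klhl25. The Klhl25 call ended without any 1 of the 6 unrestrained libraries, restrained F344 replicate 1 or 2 or restrained WKY replicate 1, and the Supt5h call without any unrestrained F344 library, WKY replicate 1 or 2 or restrained F344 replicate 1. Sav1, the scaffold of the Hippo kinases, had 1.93, 0 and 3.43 CPM in F344 against 2.30, 31.1 and 15.5 CPM in WKY (log2 3.27, SE 0.665, adjusted p = 0.00666). WKY replicate 1 lay within the F344 range, so the Sav1 call rests on WKY replicates 2 and 3. It was lost without WKY replicate 2 or F344 replicate 2, in DESeq2's test and with a robust dispersion. Of the 7 other tested Hippo genes, 0 were called, and the kinase Stk4 that binds Sav1 had a log2 difference of 0.82 (adjusted p = 0.320) with no overlap.

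Plekhb1, a pleckstrin homology domain protein of membranes, was high in F344 and at a low level in WKY. It had 16.3, 33.5 and 27.5 CPM in F344 replicates 1, 2 and 3 and 1.61, 1.97 and 2.32 CPM in WKY, so the lowest F344 library lay well above the highest WKY library. Summed counts of 138 and 19 gave a ratio of F344 to WKY, relative to library size, of 11.8 with a 95% counting interval of 7.28 to 20.2, and the fitted log2 difference was -3.68 (SE 0.449, adjusted p = 1.26e-06). The call held in every fit that left out 1 library. Rab6a, which overlaps Plekhb1 in the RefSeq annotation, had 5.32 ± 1.20 CPM in F344 and 4.01 ± 1.37 CPM in WKY (SD, n = 3, log2 -0.44, adjusted p = 0.839). No source used here says whether counting used strand, so reads from overlapping genes cannot be told apart.

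Alox15, Ctsb and Hbb-b1 were abundant transcripts that were lower in WKY. Alox15, a lipoxygenase of eosinophils and maturing red cells, had 71.1, 189 and 142 CPM in F344 and 46.5, 38.3 and 39.1 CPM in WKY (log2 -1.69, SE 0.322, adjusted p = 0.00339). Ctsb, the lysosomal protease cathepsin B, had 71.1, 129 and 111 CPM in F344 against 43.7, 44.6 and 34.4 CPM in WKY (log2 -1.33, SE 0.294, adjusted p = 0.0165). Hbb-b1, a beta globin gene, had 966, 1722 and 1598 CPM in F344 and 733, 456 and 329 CPM in WKY (log2 -1.50, SE 0.339, adjusted p = 0.0205). All 3 genes were lowest in replicate 1 among the F344 libraries, and that library lay closest to WKY. The summed CPM of 33 red cell membrane and maturation genes followed the same order within F344, at 691, 1440 and 1307 CPM in replicates 1, 2 and 3, with WKY between at 956, 1080 and 1138 CPM. The sum of 33 heme synthesis and iron handling genes was 1194, 2253 and 2027 CPM in F344 and 1256, 1473 and 1263 CPM in WKY, again overlapping through F344 replicate 1. The part of red cell RNA in these calls was not tested. Without F344 replicates 2 and 3 together the log2 differences were -0.73 for Alox15 (adjusted p = 0.855), -0.74 for Ctsb (0.804) and -0.88 for Hbb-b1 (0.795), and 1 F344 library then stood for its group, assumed to vary like the other groups. Leaving out a single library ended the Alox15 call for F344 replicate 2 or WKY replicate 2, the Ctsb call for F344 replicate 2 or 3 or any WKY library, and the Hbb-b1 call for replicate 2 or 3 of either strain.

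Red cell genes as a list were centred on 0: of 26 tested membrane and maturation genes 13 were positive, the median was 0.02 and 0 were called. Alas2, the first enzyme of heme synthesis in red cells, had 615 to 2256 counts per library and the anion exchanger Slc4a1 291 to 981. Of 6 tested globin genes, Hbb-b1 was the single call; Hbb itself stood at 28594 ± 7877 CPM in F344 and 23352 ± 3068 CPM in WKY (log2 -0.29, adjusted p = 0.892). Globin genes are near-identical copies, so the level of any 1 of them is uncertain. Among eosinophil, basophil and mast cell markers only 3 were tested, and all 3 were negative: Alox15, Siglec5 (4.42 ± 0.860 against 1.52 ± 0.976 CPM, log2 -1.59, adjusted p = 0.249) and Gata1 (log2 -0.46). The list sum of 88.3, 212 and 152 CPM in F344 and 61.2, 53.4 and 57.3 CPM in WKY consisted mainly of Alox15. Of 15 tested lysosomal genes 11 were positive with a median of 0.23, so Ctsb ran against its list. Progranulin Grn had a log2 difference of 1.35 (adjusted p = 0.168) and Ctse, cathepsin E, one of -0.61.

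The remaining 5 genes lower in WKY had modest counts. Asns, which makes asparagine and is a target of the amino acid stress response, had 5.24, 9.14 and 19.4 CPM in F344 and 1.15, 2.95 and 3.10 CPM in WKY (log2 -2.08, SE 0.493, adjusted p = 0.0329). Of the 11 tested genes of that response, 5 were positive, the median was -0.04 and Asns was the single call. Kbtbd11, a BTB and kelch domain protein, had 7.17, 7.31 and 8.01 CPM in F344 and 1.38, 2.62 and 1.94 CPM in WKY (log2 -1.92, adjusted p = 0.0329). These Kbtbd11 levels rest on 26, 12 and 7 counts in F344 and 6, 8 and 5 in WKY. Arpc2, a subunit of the actin-branching Arp2/3 complex, had 11.9, 14.0 and 22.9 CPM in F344 and 5.99, 4.92 and 3.48 CPM in WKY (log2 -1.63, adjusted p = 0.0329). Its fellow subunits were not called, with log2 differences of -0.49 for Actr3, -0.43 for Actr2 and 0.48 for Arpc1b. The ribosomal protein gene Rpl35 had 14.1, 22.5 and 13.7 CPM in F344 and 7.37, 4.26 and 3.87 CPM in WKY (log2 -1.65, SE 0.362, adjusted p = 0.0156). Rpl27 had 3.03, 7.92 and 10.3 CPM in F344 and 1.84, 0.328 and 0.387 CPM in WKY (log2 -2.62, adjusted p = 0.0490). Of 75 tested cytosolic ribosomal protein genes, 43 were positive with a median of 0.09, and these 2 were the calls. Ribosomal protein genes have many processed copies in the genome, so single members are uncertain. The Asns call ended without F344 replicate 2 or 3 or WKY replicate 1 or 2, the Arpc2 call without F344 replicate 2 or 3 or any WKY library, and the Rpl35 call without F344 replicate 2 or WKY replicate 2 or 3. Kbtbd11 lost its call without any 1 of the 6 unrestrained libraries or restrained F344 replicate 1, and Rpl27 without replicate 2 or 3 of either unrestrained group or any restrained F344 library.

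Some genes averaging 5 CPM or more fell just outside the threshold. On the higher side these were Mx1, Mx2, RT1-CE14, Oas3 and Lyz2, with adjusted p between 0.0611 and 0.0750. Lyz2, the lysozyme of monocytes and macrophages, stood at 47.8 ± 3.54 CPM in F344 and 98.4 ± 6.47 CPM in WKY (log2 1.03, SE 0.281), with a gap between groups several times the spread within them. RT1-CE14 overlapped between groups. On the lower side they were the glycosyltransferase gene Galnt10 (29.7 ± 8.74 against 12.1 ± 1.26 CPM, log2 -1.26, adjusted p = 0.0716), Sec14l1, Ypel5, Ppp6r2 and Mxi1, with adjusted p up to 0.0905. Just inside the threshold lay Rpl27 (0.0490) and Klhl25 (0.0392).

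Cell type markers gave no called gene other than Alox15, Ctsb and Hbb-b1. T cell markers leaned lower in WKY: 15 of 19 tested were negative around a median of -0.33 and 0 were called, with all WKY libraries below F344 for 6 (31.6%, against 6.33% over all genes). The receptor chains Cd247 (12.1 ± 2.41 against 4.69 ± 1.25 CPM, log2 -1.27, adjusted p = 0.0914) and Cd3e (4.40 ± 0.672 against 1.52 ± 0.130 CPM, log2 -1.54, adjusted p = 0.304) were among these 6, and Cd4 had a log2 difference of 0.68 with overlapping libraries. Cd3e rests on 18, 6 and 4 counts in F344 and 6, 5 and 4 in WKY. In the restrained libraries the log2 difference was -0.07 for Cd247 and -0.52 for Cd3e, both overlapping. There 18 of the 19 T cell markers were negative, with a median of -0.50. Summed T cell CPM was 138, 107 and 124 in F344 and 95.6, 91.1 and 94.1 in WKY, without overlap. Platelet and megakaryocyte markers leaned higher, with 14 of 15 positive, a median of 0.64 and 0 called. Thbs1 (log2 1.08, adjusted p = 0.221), Vwf (1.01, 0.271) and Itgb3 (0.87, 0.327) had the smallest adjusted p of the list, whose log2 differences reached 1.53. Their sums of 134, 83.5 and 77.8 CPM in F344 and 190, 180 and 101 CPM in WKY overlapped. Monocyte markers had a median of 0.37 with 7 of 13 positive, among them Csf1r (6.41 ± 3.77 against 13.9 ± 2.59 CPM, log2 0.97, adjusted p = 0.320) and Cybb, the oxidase subunit of phagocytes (log2 1.57, adjusted p = 0.180). The 6 negative members included Ctsb, the single call of this list (log2 -1.33), Fcgr1a (-0.79, adjusted p = 0.767) and Vcan (-0.43). Neutrophil markers had a median of 0.40 with 6 of 8 positive, with Csf3r at log2 0.51 (adjusted p = 0.664) and Mmp9 at -1.39. B cell markers (10 tested, median -0.09) and the 3 tested NK and cytotoxic markers (median -0.15) had 0 calls. The part of cell composition in the 19 calls was not tested.

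**Figure D3:**
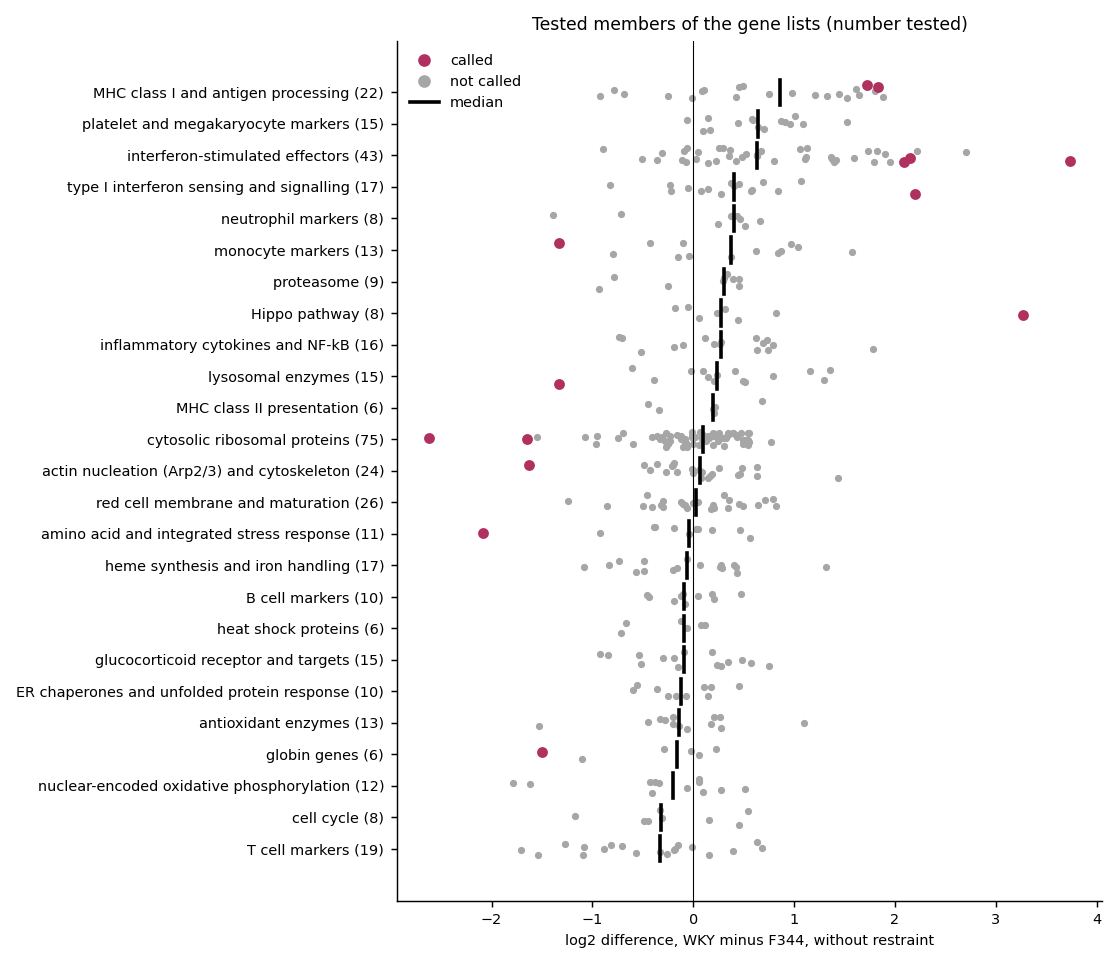
Log2 difference between unrestrained WKY and F344 (x axis) for tested members of gene lists with at least 5 tested members (genes not reported here are not drawn) (y axis, number tested in brackets); black bars are list medians and red points the called genes. MHC class I, platelet and interferon-stimulated lists have the highest medians (0.86, 0.64 and 0.63) and T cell markers the lowest (-0.33).

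Of 15 tested genes of the glucocorticoid receptor and target list, 0 were called between unrestrained strains, against 0.683% of all tested genes. A list this short can hold 0 calls at that share, so no lack of a difference is shown. Fkbp5, the glucocorticoid-induced co-chaperone that feeds back on the receptor, had 4.64 ± 0.813 CPM in F344 and 3.50 ± 1.69 CPM in WKY (log2 -0.30, SE 0.495, adjusted p = 0.924). Nr3c1, the glucocorticoid receptor itself, had 5.84 ± 0.996 and 6.43 ± 1.23 CPM (log2 0.19, SE 0.388). Tsc22d3, which encodes the glucocorticoid-induced leucine zipper, had a log2 difference of -0.19 (SE 0.373) and the clock gene Per1 one of -0.10 (SE 0.615). Over the 15 tested genes of this list, 7 were positive, the median was -0.10 and 0 were called. The inflammatory cytokine Il1b was at 9.28 ± 3.01 and 9.39 ± 4.11 CPM (log2 0.12, SE 0.381), and 0 of 16 tested inflammatory genes were called, with a median of 0.27.

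The same strain contrast was then measured in the 6 restrained libraries, which share no sample with the unrestrained ones but do share the estimate of spread, since all 12 entered 1 fit. After restraint 36 of 2781 genes were called (1.29%), 18 in each direction. Of the 19 genes called without restraint, 17 had the same sign after restraint and 13 were called again, which is 68.4% of the 19 and 36.1% of the 36. Irf7 stood at 77.7, 87.0 and 101 CPM in restrained F344 and 309, 363 and 252 CPM in restrained WKY (log2 1.80, adjusted p = 0.000197). Oas1a (log2 3.54), RT1-S3 (1.61), RT1-CE5 (1.48), Lgals3bp (1.71) and Supt5h (1.47) were likewise called higher. Plekhb1 had 21.6, 19.8 and 17.9 CPM in restrained F344 and 0, 0.436 and 1.97 CPM in restrained WKY (log2 -4.62, adjusted p = 1.23e-07). Alox15 had 144, 156 and 159 CPM in restrained F344 against 44.6, 51.0 and 27.3 CPM in restrained WKY (log2 -1.90, adjusted p = 0.000482). In these libraries the summed red cell CPM was 903 to 1030 in F344 and 989 to 1599 in WKY, and that of heme synthesis and iron handling genes was 1610, 1889 and 1750 in F344 and 1370, 2042 and 1407 in WKY, so the strains overlapped in both sums. Ctsb (log2 -1.25), Hbb-b1 (-1.85), Rpl35 (-1.96) and Arpc2 (-1.44) were also called lower again. Of 43 tested interferon-stimulated effectors 7 were called higher after restraint, against 18 of all 2781 tested genes. Mx1 (log2 1.19), Mx2 (2.04), Isg15 (2.22), Slfn3 (1.39) and Rtp4 (2.60) joined Oas1a and Lgals3bp, and the list median was 0.56.

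**Figure D4:**
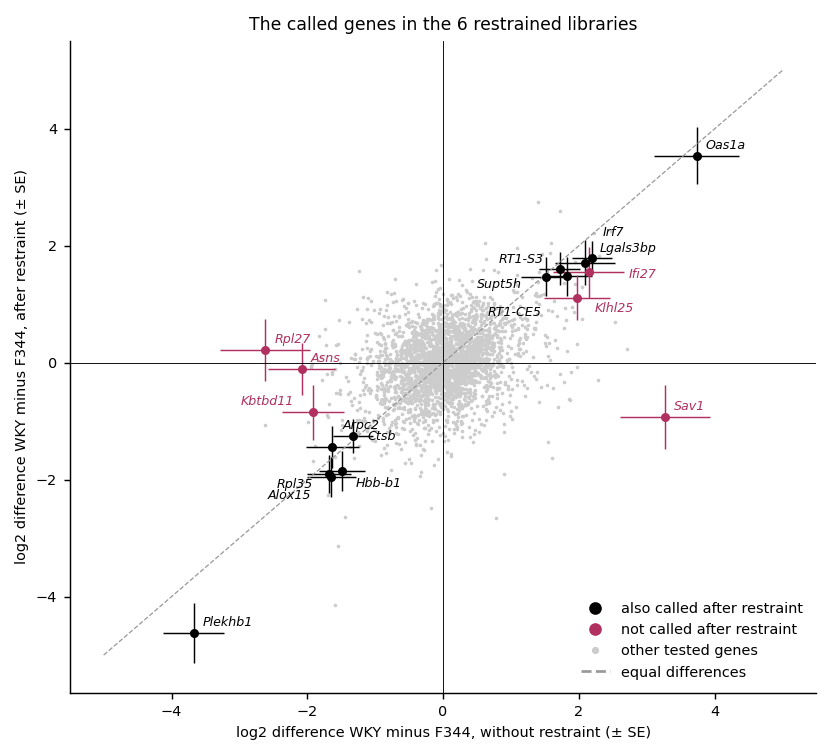
Log2 difference WKY minus F344 after restraint (y axis) against that without restraint (x axis), with SE bars for genes called without restraint; grey points are the other tested genes and the dashed line marks equal differences. Among the genes with bars, Sav1, Rpl27 and Asns (red) lie farthest from the line. Of those called in both sets (black), Plekhb1 lies farthest from it (-3.68 without and -4.62 after restraint).

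The other 6 genes (Sav1, Asns, Kbtbd11, Ifi27, Klhl25 and Rpl27) were not called after restraint. Ifi27 came close, at 4.64, 1.02 and 3.86 CPM in restrained F344 against 9.68, 14.0 and 6.57 CPM in restrained WKY (log2 1.55, adjusted p = 0.0652). Sav1 turned the other way, with 7.07, 7.85 and 5.88 CPM in restrained F344 and 4.58, 2.18 and 3.61 CPM in restrained WKY (log2 -0.93, adjusted p = 0.545). Asns had a log2 difference of -0.11 after restraint, Kbtbd11 -0.85, Klhl25 1.12 and Rpl27 0.22. A test of the difference between the 2 strain contrasts called 0 of 2781 genes (0%) in edgeR, with 106 at an unadjusted p under 0.05, and 0 in DESeq2. The smallest adjusted p in that test belonged to Sav1 (0.0699), and the unadjusted p was 0.00201 for Rpl27 and 0.00559 for Asns. Sav1 passed this test in 4 of the alternative fits: with no low count filter (adjusted p = 2.15e-07) and without WKY replicate 1 (6.44e-05), restrained WKY replicate 1 (0.0498) or restrained WKY replicate 3 (0.0461). The other 5 genes passed it in none of the alternative fits. Over all 2781 genes the 2 contrasts had the same sign in 60.01% and correlated with Pearson's r = 0.384, a description across genes, which are not independent replicates and share libraries and scaling within each contrast.

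How far each call depended on single libraries differed widely. Plekhb1, Irf7, Oas1a and RT1-S3 were called in each of the 12 fits that left out 1 library. Alox15, RT1-CE5 and Sav1 held in 10 of 12, Lgals3bp and Rpl35 in 9, Hbb-b1 and Asns in 8, Ctsb, Arpc2 and Ifi27 in 7, Supt5h in 6, Kbtbd11 and Rpl27 in 5 and Klhl25 in 3. The count of called genes was 45 without F344 replicate 1, 5 without F344 replicate 2, 10 without F344 replicate 3, 9 without WKY replicate 2 and 12 without WKY replicate 3. It was 16 without WKY replicate 1 and 15 to 23 without 1 of the restrained libraries. Without both F344 replicates 2 and 3 it was 5, with Plekhb1, Irf7 and Oas1a among them. RT1-S3 then had a similar difference (log2 1.83) but did not pass (adjusted p = 0.0638). A fit of the 6 unrestrained libraries alone lost Asns, Ctsb, Hbb-b1, Ifi27, Kbtbd11, Klhl25, Rpl27 and Supt5h and did not test Sav1. With limma-voom Oas1a narrowly missed the threshold (adjusted p = 0.0553), and Ifi27, Klhl25, Lgals3bp, Rpl27, Sav1 and Supt5h were lost.

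**Figure D5:**
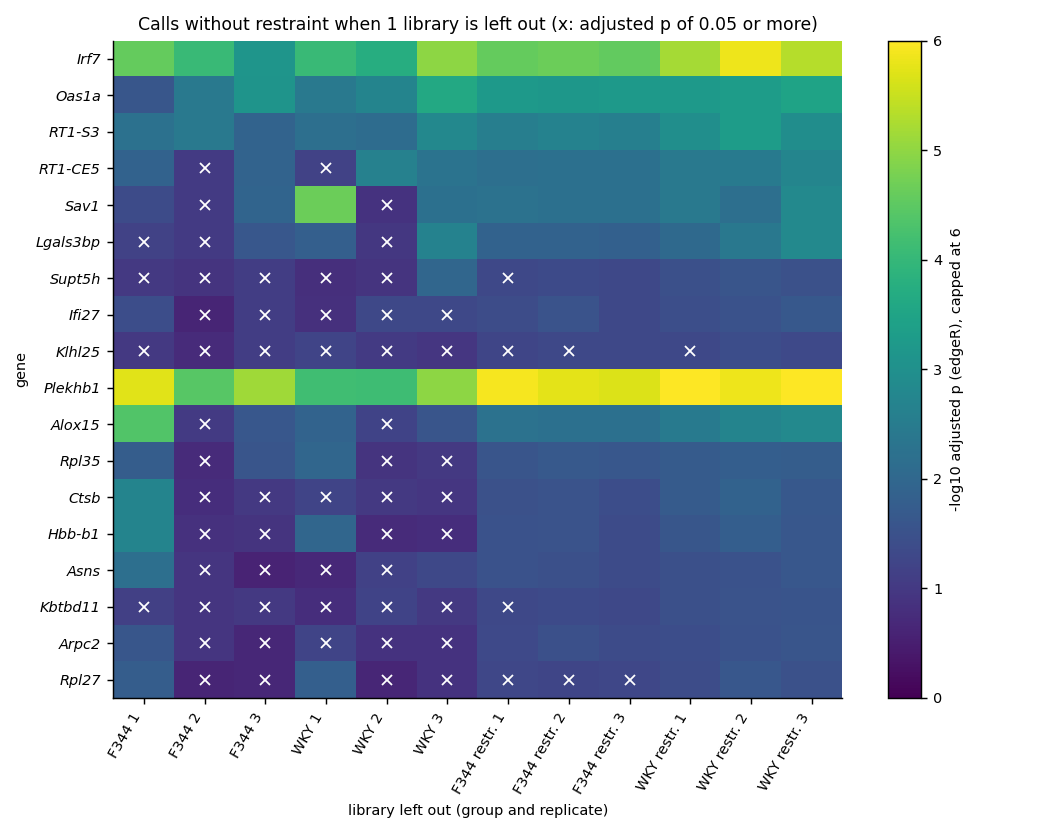
Each row is a gene called without restraint and each column a fit that left out 1 library; colour gives -log10 of the adjusted p, capped at 6, and a cross marks an adjusted p of 0.05 or more. Plekhb1, Irf7, Oas1a and RT1-S3 have no cross, and the column without F344 replicate 2 has the most.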

How the data were processed

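The deposited files hold whole-number read counts per gene for 17337 genes and 5 rows that name no gene, not normalised by the authors, per the file headers and values. Those rows took 83.6% to 86.6% of counts in the 6 libraries and stayed out of all tests. Cutadapt 1.14, TopHat2 2.1.0 and Cufflinks 2.2.1 appear in the submitters' processing notes without a role, beside build rn6. The counter is not given in the sources used here, nor is its annotation or use of strand. Libraries followed standard Ion Proton protocols, per the labels' protocols.

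The test was that of edgeR 4.0.16 under R 4.3.3 (glmQLFit, glmQLFTest, TMM scaling, filterByExpr with a minimum count of 10), with 12 libraries in 1 fit of 4 group means, and adjusted by Benjamini-Hochberg over 2781 genes at a threshold of 0.05. The fit was also run on counts simulated from its own model, with spread estimated from these libraries. That checks the code and not the model. Standard errors come from the log2 difference and the F statistic. Counting intervals are exact, at 95%, and cover counting error only. No replicate pair agreed within sampling noise. Alternatives used DESeq2 1.42.0 and limma 3.58.1.

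The members, the 33 gene lists and the rule for named genes were chosen with earlier results of these data known. The rule takes every called gene, the 5 nearest outside the threshold per direction with a mean of at least 5 CPM, at most 3 members of a described list in each direction, and 8 genes always given. Other genes named here (B2m, Tap2, Isg15, Slfn3, Rtp4, RT1-A1, RT1-A2, Tapbp, Tapbpl, Alas2, Slc4a1, Rab6a, Foxe1, Sema4g and the markers of blood cells and other tissues whose counts are given) were chosen for their role or after their values were seen. Gene names were matched to RefSeq (GRCr8), 14821 by symbol and 2125 by synonym. Since the files use rn6, no coordinates of theirs are given. Some genes, 1 of them called, are not reported here.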

Additional observations from a re-analysis of the deposited data

How the results depend on the processing

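The count of genes called without restraint was 19 and lay between 18 and 22 with DESeq2 size factors (18), DESeq2's Wald test (20, of which 17 were among the 19), limma-voom with quality weights (21, of which 12 were among the 19), no low count filter (22, of which 11 were), a stricter filter (22), removal of the dominant features (18) or of globin genes (18), and a robust dispersion (19). The split of higher and lower calls was 9 and 10 in the reported fit, 4 and 17 with limma-voom and 19 and 3 with no filter. With the 6 unrestrained libraries alone it was 9, all among the 19, and Sav1 was not tested there because of the filter. Leaving out both shallowest F344 libraries gave 5, and the count ranged from 5 to 45 when 1 library was left out. Deviations from the group mean correlated at 0.12, -0.02 and 0.08 between same-numbered unrestrained libraries of the 2 strains. Between differently numbered ones they correlated at -0.12 to 0.02. Whether replicate numbers pair the samples was not tested further. With the replicate block 25 genes were called, including all 19. After restraint the count of 36 ranged from 18 to 46 when 1 library was left out, falling to 18, 19 and 20 without restrained F344 replicate 1, 2 and 3, and was 42 with the replicate block and 50 with the 6 restrained libraries alone. The count of genes whose strain difference differed between treatments was 0 and also 0 with the replicate block, but 3 with no filter (Foxe1, Sav1 and Sema4g), 1 without both shallowest F344 libraries (Sema4g) and 0 to 2 when 1 library was left out, with Sav1 called without WKY replicate 1, restrained WKY replicate 1 or restrained WKY replicate 3. The cause of these changes was not tested. Over 177 named genes and their alternatives, 3740 values were counted as unchanged, 107 lost the call and 43 gained it. A reversal of sign was counted for called genes alone, and 0 reversed. Any sign changes in genes not called stand among the 3740. Of the list medians, 495 values moved by less than the spread between replicates and 50 by more. Depth limits low genes: 1 count was worth 0.318 to 0.591 CPM before scaling. The TMM factors were 1.497, 0.626 and 0.519 in unrestrained F344 replicates 1, 2 and 3. In unrestrained WKY they were 1.395, 1.006 and 0.949. A smaller factor raises the scaled CPM of 1 count, so this range was wider after scaling. Among the unrestrained libraries 1 count was then worth most in F344 replicate 3 and least in WKY replicate 1.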

Other observations

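Further gene groups of unrestrained blood are given as values. Nuclear-encoded oxidative phosphorylation genes had a median log2 difference of -0.20 with 12 tested, among them Ndufa1, a complex I subunit (5.68 ± 0.427 CPM in F344 against 1.54 ± 2.05 CPM in WKY, SD, n = 3, log2 -1.62, adjusted p = 0.221), and Cox7a2, a complex IV subunit (log2 -1.79, adjusted p = 0.327). Ndufa1 was called after restraint (log2 -1.90, adjusted p = 0.0211). Among 13 tested antioxidant genes the median was -0.15, with Nfe2l2, the master regulator of that response, at 2.47 ± 0.758 and 0.860 ± 0.259 CPM (log2 -1.53, adjusted p = 0.440). These Nfe2l2 levels rest on 17 counts in F344 and 9 in WKY. After restraint Nfe2l2 had a log2 difference of 0.73 (adjusted p = 0.668), and 12 of the 13 genes were positive with a median of 0.30. The difference between the 2 contrasts was not called for Nfe2l2 (adjusted p = 0.993). Rhd, a red cell membrane protein of the Rhesus complex, was at 13.9 ± 5.58 and 5.44 ± 0.680 CPM without restraint (log2 -1.25, adjusted p = 0.131) and was called after restraint (log2 -1.43, adjusted p = 0.0263). Siglec5, a sialic acid receptor, had a log2 difference of -4.14 after restraint (adjusted p = 0.000836) against -1.59 without. Rpl38 had -3.13 after restraint (adjusted p = 0.00143) against -1.55 without. MHC class II genes had a median of -0.96 after restraint, with 0 of 6 positive, against 0.20 without. Proteasome genes (9 tested, median 0.30), heat shock proteins (6 tested, median -0.09), endoplasmic reticulum chaperones (10 tested, median -0.12) and cell cycle genes (8 tested, median -0.32) had 0 calls without restraint.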
